A study of Homo sapiens and Mus musculus with 5 samples.

Results

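The fragments described here carry the chromosome 19 SNPs of a plasmid reporter library built around variants linked to schizophrenia. They were taken as every fragment whose SNP name begins with chromosome 19, without regard to any measured value, which gave 48 fragments of 984 in the library, 17 SNPs of 347 and 84 alleles of 1625. Every fragment places its SNP after a front of 50, 100 or 150 bases, with the rest of 200 flanking bases behind. Of the 17 SNPs, 14 were present in 3 such placements and 3 in 2. The tables number the alleles 1 and 2 without naming their bases. Both alleles were counted in at least 1 line for 36 fragments, and 12 fragments had a single allele in every table.

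Activity was read by STARR-seq, in which a cloned fragment drives its own transcription, so that the RNA of a fragment relative to its plasmid DNA reports its enhancer activity. The same plasmid pool was transfected into 4 lines: the neuroblastoma lines Neuro-2a, from mouse, and SH-SY5Y, from a human tumour, the human embryonic kidney line HEK-293T, and PC-12, which was derived from a rat pheochromocytoma although its label gives the organism as mouse. RNA was sequenced as replicates 1 and 3 in PC-12 and as replicates 1, 2 and 3 in the other lines, and all 4 lines were set against the same 3 libraries of the plasmid input, which served as the background. No line carried a further treatment or genotype. The lines are transfected cultures that hold the fragments on plasmids and not at their place in the genome, and in the mouse and rat lines the human sequence meets the proteins of another species.

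Enhancers are stretches of DNA that bind transcription factors and raise transcription from a promoter at some distance, and promoters can themselves act as enhancers in this assay. A variant in such a stretch can change how well a factor binds and so change the RNA made by the allele that carries it. Common factor motifs near gene starts include the GC box, bound by Sp1 and related factors, the CCAAT box, bound by NF-Y, and the TATA box, bound by the TATA-binding protein.

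SNPs are named by chromosome and position, as 19_2129707. No source used here gives their genome build, so the gene names hold if it is GRCh38, the build of the RefSeq table used (GRCh38.p14). On that basis 14 of the 17 SNPs lie inside a protein-coding gene. Both 19_2129707 and 19_2155137 lie in AP3D1, which encodes a subunit of the AP-3 adaptor of lysosomal sorting. ZNF823, a zinc finger gene, holds 19_11738921, only 25 bases inside its end. MAU2, whose product loads cohesin onto chromatin, holds 19_19329257 and 19_19347099. The SNP at 19_19367213 lies in the long noncoding RNA gene LOC124904656, 8459 bases from MAU2, and 19_19386860 lies in GATAD2A, a subunit gene of the NuRD chromatin remodelling complex. ZNF536, a zinc finger gene expressed in the brain, holds 19_30496516 and 19_30539282. ANKRD27, whose product acts in endosomal trafficking, holds 19_32653820 and 19_32672137. THAP8, a gene of a DNA-binding domain family, holds 19_36039660 and 19_36040011 and is overlapped there by LOC101927572. The SNP at 19_48746982 lies in no gene and 73 bases from the end of IZUMO1, the sperm protein needed for fusion with the egg. SCAF1, which encodes a splicing-related factor, holds 19_49644795. The SNP at 19_49665670 lies where IRF3, a transcription factor of the antiviral response, overlaps BCL2L12, a BCL2 family gene, and 19_56678350 lies in the noncoding LOC105372473. Exons and introns were not assigned, since the table lists whole genes.

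The surroundings of the ZNF823 and IZUMO1 SNPs are shown because both lie beside a gene start and together they held every called difference between placements in Neuro-2a. Both sequences are the RefSeq reference of GRCh38.p14 on the minus strand, 5′ to 3′, from chr19:11738917-11739071 and chr19:48746910-48747132. Capitals mark motif matches and, for ZNF823, also the single base at the SNP position.
ZNF823: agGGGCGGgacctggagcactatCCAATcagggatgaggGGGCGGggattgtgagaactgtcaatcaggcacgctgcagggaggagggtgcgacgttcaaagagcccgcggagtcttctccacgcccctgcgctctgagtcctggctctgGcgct
IZUMO1: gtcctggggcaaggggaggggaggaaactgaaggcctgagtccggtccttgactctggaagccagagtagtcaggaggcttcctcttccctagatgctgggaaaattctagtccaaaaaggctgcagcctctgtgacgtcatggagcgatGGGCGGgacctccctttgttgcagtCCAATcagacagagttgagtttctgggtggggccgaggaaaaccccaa
The motifs searched on both strands were GGGCGG for the GC box, CCAAT for the CCAAT box and TATAAA for the TATA box, and no match overlapped another. Of 35116 RefSeq promoter windows of 300 bases, 45% held a GC box, 34.6% a CCAAT box and 11.5% a TATA box on either strand. The stretch before ZNF823 held a GC box 123 bases and another 86 bases before the gene start, with a CCAAT box between them, 102 bases before it. The stretch before IZUMO1 held a GC box 73 bases and a CCAAT box 48 bases before the start, and the SNP position is the first base of that GC box. The strand of the fragments, and whether the bases in front are those at lower coordinates, are not stated in any source used here. If front means lower coordinates, the ZNF823 fragment with 50 bases in front reaches 125 bases before the gene start and holds all 3 matches, and the other placements, which reach 75 and 25 bases before it, hold none of them. If front means higher coordinates the order is turned. The GC and CCAAT boxes of IZUMO1 lie within 50 bases of the SNP and so in all 3 placements either way. A TATA box match 8 bases after the IZUMO1 start, outside the stretch printed, lies in the fragments with 100 and 150 bases in front and not in that with 50 if front means lower coordinates. The windows around these gene starts were 62% and 57.3% G or C, beside a median of 58.7% over the promoters. A motif match is a description of letters and not evidence of a bound site.

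Totals per library were 5875437 to 10201521 counts for RNA and 6380682 to 8421333 for the input. All chromosome 19 alleles present in a table passed the minimum mean count of 10. These were 84 alleles in PC-12, 80 in both HEK-293T and SH-SY5Y, and 76 in Neuro-2a, and 73 were in all 4 tables. The RNA replicates were unequal. Across chromosome 19 alleles, which share libraries and plasmid pool, log2 activity of replicate 1 correlated with that of replicates 2 and 3 of its line at Pearson's r of 0.43 to 0.63 (n = 70 to 79 alleles), and that of replicates 2 and 3 with each other at 0.79 to 0.96. Alleles in the lowest 25% of input counts stood apart: in Neuro-2a their median log2 ratio to the input was 0.16 in replicate 1, 2.17 in replicate 2 and 1.67 in replicate 3 (13 alleles), and in SH-SY5Y it was 0.21, 2.18 and 1.40 (17 alleles). In HEK-293T it was 0.36, 0.68 and 0.87 (16 alleles), and PC-12 gave -0.08 and 0.45 in replicates 1 and 3 (20 alleles). The other alleles had medians of -0.19 to 0.35. The part of input abundance in the results below was not tested.

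Of the 84 alleles, 21 were called active or depleted in at least 1 line and 63 in none. This count and the splits over lines below were not made for the whole library, so the library's shares are given per line only. Activity compares an allele's RNA with its input on the log2 scale, where 0 is the level of a typical library member, and an allele was called at an adjusted p of 0.05 by edgeR (quasi-likelihood test, adjusted by Benjamini and Hochberg's method over all alleles of the line). Called alleles were above the input in 7 of 76 cases and below it in 0 in Neuro-2a, where 5.78% of all tested alleles of the library were called, 4.08% above and 1.7% below. SH-SY5Y had 11 above and 3 below of 80, beside 7.43% above and 5.51% below in the library (12.9% in all). HEK-293T had 1 above and 2 below of 80, beside 1.35% and 1.02% (2.37% in all), and PC-12 had 4 above and 5 below of 84, beside 5.64% and 4.77% (10.4% in all). Shares among the chromosome 19 alleles were thus 9.21%, 17.5%, 3.75% and 10.7% in that order of lines. Their median activity was 0.38, 0.31, -0.02 and 0.13, beside 0.01, -0.01, -0.11 and -0.01 over all alleles. In the same order, 25, 25, 18 and 25 alleles lay above all input libraries in every RNA library of the line, and 12, 18, 18 and 27 below. Lying outside the input range in every library of a line was thus more common than a call. The less strict rules raised the counts with those of the library: an unadjusted p under 0.05 in edgeR took 29, 33, 25 and 29 alleles, beside 25.7%, 34.3%, 23.1% and 31.4% of the library, and DESeq2's adjusted p took 29, 32, 25 and 38, beside 27.9%, 30.9%, 23.6% and 40.3%. Of the 21 alleles, 12 had calls from a single line, 7 from 2 lines, 1 from 3 and 1 from all 4, with 14 only above, 6 only below and 1 in both directions. The 10 SNPs with a called allele are described next. A single condition limits all of them: when any of the 3 input libraries was left out, every activity call ended except that of MAU2 19_19329257, allele 1 with 150 bases in front, in SH-SY5Y, and every placement call ended, although no direction turned.

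The ANKRD27 SNP at 19_32672137 carried the allele called in all 4 lines. Allele 2 with 150 bases in front stood at 1206, 1107 and 1198 CPM (read counts scaled to library size by the trimmed mean of M values) in the input, scaled with the Neuro-2a libraries, as are all input values below unless another table is named. Its RNA in Neuro-2a held 2550, 2994 and 2994 CPM, and in SH-SY5Y 3244, 2480 and 2815. HEK-293T gave 2467, 2525 and 2164, and PC-12 gave 2505 and 2575. All 11 RNA libraries lay above all input libraries, and the values of the lines overlapped. The log2 activity was 1.28 ± 0.13 (SE of the fit, 3 RNA libraries) for Neuro-2a, 1.28 ± 0.14 for SH-SY5Y, 0.97 ± 0.12 for HEK-293T and 1.13 ± 0.08 (2 RNA libraries) for PC-12. The adjusted p was 0.00955, 0.00948, 0.035 and 0.00732 (edgeR, Benjamini-Hochberg). A test of the difference between the 4 lines gave an adjusted p of 1.00 (edgeR quasi-likelihood F test), so no difference between lines was detectable.

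Allele 1 of the same ANKRD27 fragment was called in Neuro-2a alone, at 1.06 ± 0.14 (adjusted p = 0.0225, edgeR). Its Neuro-2a RNA held 2228, 1851 and 1893 CPM against 944, 936 and 990 in the input. The other lines gave 0.98 ± 0.29, 0.60 ± 0.25 and 0.95 ± 0.19 in SH-SY5Y, HEK-293T and PC-12, which did not pass, and the test of a difference between lines gave an adjusted p of 1.00 (edgeR). All of its RNA values, the lowest of them 1144 in HEK-293T, exceeded its input values. The 2 alleles were not separated: allele 2 made up 56.1%, 54.2% and 54.7% of the input, and its share in RNA was 53.4%, 61.8% and 61.3% in Neuro-2a and between 53.4% and 68.8% over all lines. The log2 ratio of allele 2 over allele 1 was between 0.20 ± 0.22 in PC-12 and 0.42 ± 0.27 in HEK-293T, with adjusted p of 0.451 to 0.804. Allele 2 with 50 bases in front was also active, at 1.09 ± 0.17 in SH-SY5Y, 0.88 ± 0.11 in PC-12 and 0.80 ± 0.15 in Neuro-2a (adjusted p = 0.0213, 0.0207 and 0.0422, edgeR), while HEK-293T gave 0.53 ± 0.27 (adjusted p = 0.304). The Neuro-2a call ended without RNA replicate 2 (adjusted p = 0.0533) and with DESeq2's size factors (adjusted p = 0.053). In HEK-293T its replicate 2, at 935 CPM, lay below its input of 1032, 1007 and 974, and the other 2 replicates lay above it at 1822 and 1578. The other ANKRD27 SNP, 19_32653820, had no call in 5 alleles.

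The MAU2 SNP at 19_19329257 gave the largest called differences between placements on chromosome 19. With 150 bases in front, both alleles were depleted from PC-12 RNA, allele 1 also from SH-SY5Y RNA and allele 2 also from HEK-293T RNA. Allele 1 stood at 1267, 1202 and 1214 CPM in the input and at 80.7, 55.1 and 44.6 in SH-SY5Y RNA. In PC-12 it stood at 122 and 50.2, in HEK-293T at 227, 154 and 15.4, and in Neuro-2a at 603, 393 and 187. No RNA library reached the input level. The highest values were those of Neuro-2a replicates 1 and 2, and its replicate 3 lay under HEK-293T replicate 1. The difference between lines did not pass (unadjusted p = 0.0793, edgeR quasi-likelihood F test). The log2 activity was -4.35 ± 0.29 in SH-SY5Y and -3.82 ± 0.49 in PC-12, both called (adjusted p = 0.0043 and 0.0207, edgeR), and -3.27 ± 0.93 in HEK-293T and -1.64 ± 0.44 in Neuro-2a, which did not pass (adjusted p = 0.119 and 0.0937). Allele 2 of this fragment held 340, 339 and 342 CPM in the input and fell to 3.78, 8.7 and 9.73 in HEK-293T and to 16.2 and 29.1 in PC-12, with log2 activity of -5.57 ± 0.59 and -3.90 ± 0.37 (adjusted p = 0.0242 and 0.0114, edgeR). In Neuro-2a it stood at 162, 261 and 543, on both sides of the input, at -0.08 ± 0.49, and in SH-SY5Y it was not in the table.

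With less sequence in front the same SNP gave RNA above the input. Allele 1 with 100 bases in front rose from 1982, 1984 and 1927 CPM to 3503, 3152 and 3600 in Neuro-2a and to 3321, 3571 and 4061 in SH-SY5Y. These are log2 activities of 0.80 ± 0.11 and 0.89 ± 0.12 (adjusted p = 0.026 and 0.0141, edgeR), beside 0.52 ± 0.17 in HEK-293T and 0.24 ± 0.08 in PC-12, which did not pass. Allele 2 with 50 bases in front was called in SH-SY5Y at 1.18 ± 0.15 (adjusted p = 0.0136, edgeR), where RNA held 1855, 2541 and 2311 CPM against 955, 989 and 1006 in the input. Neuro-2a, HEK-293T and PC-12 gave 1.34 ± 0.30, 1.23 ± 0.22 and 1.08 ± 0.28 and missed the threshold, with adjusted p of 0.0559 to 0.0932. Allele 2 with 100 bases in front was scarce, at 0.497% to 0.657% of its fragment's input reads, so its ratios rest on low input counts.

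Placement was tested as the log2 activity of an allele with the longer front over that of the same allele with the shorter front. For MAU2 19_19329257 the placement with 150 bases in front was lower in every call: by edgeR, allele 1 differed from the 100-base front by -5.28 ± 0.34 in SH-SY5Y and -4.20 ± 0.49 in PC-12 (adjusted p = 0.0055 and 0.0452). Against the 50-base front, allele 2 differed by -6.88 ± 0.34 in HEK-293T and -4.98 ± 0.15 in PC-12 (adjusted p = 0.00323 and 0.00222). Against the scarce 100-base allele 2 the differences were -8.74 ± 0.71 and -6.68 ± 0.55 in those lines (adjusted p = 0.0228 and 0.0242). The other MAU2 SNP, 19_19347099, moved the same way in allele 2 with 150 bases in front. Its input of 1252, 1187 and 1227 CPM became 613, 662 and 500 in SH-SY5Y and 425 and 248 in PC-12, with log2 activity of -1.05 ± 0.16 and -1.85 ± 0.28 (adjusted p = 0.0217 and 0.031, edgeR). Neuro-2a and HEK-293T gave -0.59 ± 0.17 and -0.96 ± 0.20, which did not pass, and all 11 RNA libraries lay below all input libraries. In PC-12 this allele differed from its 50-base placement by -2.41 ± 0.22 on the log2 scale (adjusted p = 0.033, edgeR).

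At the start of ZNF823, the placement with 50 bases in front of 19_11738921 was active in Neuro-2a. Allele 1 rose from 929, 876 and 974 CPM in the input to 2790, 7565 and 8110, and allele 2 from 1729, 1719 and 1832 to 5238, 4191 and 5198. The log2 activity was 2.73 ± 0.43 for allele 1 and 1.47 ± 0.14 for allele 2 (adjusted p = 0.0278 and 0.00955, edgeR). Replicate 1 of allele 1 lay well under the other 2 replicates, and without RNA replicate 2 its call ended. Allele 2 lay below the input in every SH-SY5Y and HEK-293T library. In HEK-293T it held 980, 1112 and 951 CPM against 1806, 1791 and 1884 in the input as scaled there, a log2 activity of -0.85 ± 0.13 (adjusted p = 0.0423, edgeR), a call that ended without RNA replicate 3. SH-SY5Y gave -0.23 ± 0.16 and PC-12 -0.03 ± 0.32. This was the allele called in both directions, and the test of a difference between lines gave an unadjusted p of 0.000113 and an adjusted p of 0.162 (edgeR quasi-likelihood F test), so it did not pass. DESeq2's test of the same difference gave an adjusted p of 9.35e-10.

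Longer fronts gave less ZNF823 activity in Neuro-2a for both alleles. Relative to 50 bases, the fragment with 100 bases in front was lower by a log2 difference of -1.75 ± 0.21 for allele 1 and -1.29 ± 0.15 for allele 2, and that with 150 bases by -1.83 ± 0.23 and -1.64 ± 0.22 (adjusted p = 0.0328 to 0.0407, edgeR). All 4 calls ended without RNA replicate 2. In PC-12 allele 1 differed by -0.97 ± 0.13 between 50 and 100 bases (adjusted p = 0.0452, edgeR), and allele 2 with 100 bases in front was depleted there, at 805 and 849 CPM against 1591, 1681 and 1694 in the input of that table (-1.001 ± 0.09, adjusted p = 0.0114). No ZNF823 placement pair was called in HEK-293T or SH-SY5Y, where the differences went both ways. Relative to 50 bases, the 100-base front gave -0.20 ± 0.24 and 0.23 ± 0.40 for alleles 1 and 2 in HEK-293T. In SH-SY5Y it gave -0.50 ± 0.26 and -0.22 ± 0.18. The 150-base front gave 0.47 ± 0.33 and 0.53 ± 0.35 in HEK-293T, and -0.21 ± 0.26 and 0.31 ± 0.24 in SH-SY5Y. The placement with 50 bases is the one that would hold the GC and CCAAT boxes printed above if front means lower coordinates. No test of the motifs was possible with 3 placements of a single region.

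The SNP before IZUMO1, 19_48746982, was active in Neuro-2a with 50 bases in front and differed from its 100-base placement. Allele 2 with 50 bases in front rose from 912, 895 and 922 CPM to 3292, 3697 and 2082, a log2 activity of 1.73 ± 0.24 (adjusted p = 0.0243, edgeR). SH-SY5Y gave 1015, 720 and 1365, HEK-293T 670, 1327 and 526, and PC-12 520 and 757. Only the Neuro-2a libraries all lay above the input, and both PC-12 libraries lay below it, at -0.50 ± 0.20 (adjusted p = 0.18, edgeR). The difference between lines had an unadjusted p of 0.00239 and an adjusted p of 0.427 (edgeR quasi-likelihood F test), and an adjusted p of 0.00091 by DESeq2. With 100 bases in front the same allele differed from the 50-base placement by -1.996 ± 0.27 on the log2 scale in Neuro-2a (adjusted p = 0.0407, edgeR), a call that ended without RNA replicate 2. Its 150-base placement had no called difference in Neuro-2a, at -0.27 ± 0.71 against 50 bases and 1.73 ± 0.58 against 100 bases (adjusted p = 0.88 and 0.291). The 100-base placement was depleted in PC-12, at 244 and 223 CPM against 428, 436 and 440 in the input of that table (-0.90 ± 0.14, adjusted p = 0.031). All 11 RNA libraries of this allele lay below their input range.

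At 19_49665670, where IRF3 and BCL2L12 overlap, allele 2 was active in SH-SY5Y in 2 placements. With 50 bases in front it rose from 2062, 2577 and 2792 CPM in the input of that table to 3939, 5607 and 6773 (1.13 ± 0.24, adjusted p = 0.0375, edgeR), a call that ended without RNA replicate 2 or 3. With 100 bases in front it rose from 91, 109 and 111 to 326, 492 and 273 (1.81 ± 0.32, adjusted p = 0.0269). Both placements of the allele exceeded the input range in all 11 RNA libraries, and the second was in the lowest 25% of input counts. The other lines gave 0.97 ± 0.27, 0.81 ± 0.22 and 0.93 ± 0.19 for the first placement in Neuro-2a, HEK-293T and PC-12, with adjusted p of 0.103, 0.112 and 0.057, and 1.92 ± 0.61, 1.51 ± 0.39 and 0.56 ± 0.32 for the second. No difference between lines was detectable for the second (adjusted p = 1.00, edgeR quasi-likelihood F test).

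THAP8's 19_36040011 was active in both alleles with 100 bases in front. Allele 1 rose from 2528, 2398 and 2485 CPM to 3929, 3311 and 3653 in SH-SY5Y and from 2503, 2391 and 2466 to 3781 and 3766 in PC-12, with input values of the table named. Its log2 activity was 0.56 ± 0.11 and 0.62 ± 0.06 (adjusted p = 0.0343 and 0.0114, edgeR), and the SH-SY5Y call ended in limma (0.55, adjusted p = 0.0617). Allele 2 gave 1.16 ± 0.18 and 0.80 ± 0.10 in those lines (adjusted p = 0.0227 and 0.0192), and HEK-293T and Neuro-2a did not pass for either allele, with values of 0.43 to 1.24. Allele 1 with 50 bases in front was called in SH-SY5Y at 2.98 ± 0.52 (adjusted p = 0.0267, edgeR). Its RNA there was 507, 1823 and 1750 CPM against an input of 169, 171 and 178, so replicate 1 lay far under the others. Its input was in the lowest 25%, and the call ended without replicate 2 or 3. The 150-base front was lower for allele 1 by log2 differences of -3.34 ± 0.50 against 50 bases and -1.11 ± 0.18 against 100 bases in SH-SY5Y (adjusted p = 0.0451 and 0.0499) and by -1.06 ± 0.11 against 100 bases in PC-12 (adjusted p = 0.037). Both SH-SY5Y differences ended without RNA replicate 2, and the first also without replicate 3.

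The remaining called alleles passed in SH-SY5Y alone, which does not show that the lines differed. ZNF536's 19_30496516, allele 1 with 100 bases in front, fell from 796, 809 and 790 CPM to 484, 384 and 434 (-0.88 ± 0.17, adjusted p = 0.0302, edgeR). All 11 RNA libraries of the 4 lines lay below their input range. The same held for allele 2 of this fragment and for allele 1 with 150 bases in front, neither of them called. GATAD2A's 19_19386860, allele 1 with 100 bases in front, rose from 161, 148 and 159 to 394, 707 and 487 (1.76 ± 0.29, adjusted p = 0.0229). In Neuro-2a the same allele read 103, 696 and 0, so the libraries of that line went opposite ways. At 19_19367213, allele 1 with 150 bases in front rose from 17.6, 21.9 and 23 to 88.9, 286 and 312 (3.46 ± 0.58, adjusted p = 0.0248). Both this allele and that of GATAD2A were in the lowest 25% of input counts, and for this allele replicate 1 was the lowest RNA library in all 4 lines.

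Placement calls numbered 5 of 53 allele pairs in Neuro-2a, 6 of 69 in PC-12, 2 of 61 in HEK-293T and 3 of 61 in SH-SY5Y, and each of these edgeR calls was lower with the longer front. The library's shares called were 1.22%, 4.25%, 0.337% and 2.6% in that order, and those of chromosome 19 were 9.43%, 8.7%, 3.28% and 4.92%. The directions of the library's calls were not counted, so this direction is not shown to be particular to chromosome 19. At an unadjusted p under 0.05 edgeR gave 17, 19, 15 and 18 pairs, beside 14.2%, 19.7%, 12.3% and 23.2% of the library, and DESeq2's adjusted p gave 17, 30, 16 and 25, beside 17.5%, 34.7%, 15.7% and 30.3%. The DESeq2 calls went both ways, with 3, 10, 6 and 10 of them higher with the longer front, as were 3 of 9 in SH-SY5Y at an edgeR threshold of 0.1. Allele 1 of 19_19367213 was higher with 150 than with 50 bases in all 4 lines, by log2 differences of 3.72 ± 0.93 to 4.71 ± 1.67, of which that of SH-SY5Y came nearest to a call (3.97 ± 0.70, adjusted p = 0.0519, edgeR). The calls came from 5 SNPs, those of ZNF823, MAU2 (both), IZUMO1 and THAP8's 19_36040011, so pairs that share a fragment are not independent. The median difference over all chromosome 19 pairs was -0.35, -0.27, -0.18 and 0.00, beside 0.05, 0.04, -0.03 and 0.03 over the library. By front length, the median log2 activity of chromosome 19 alleles in Neuro-2a was 0.76 with 50 bases, 0.19 with 100 and 0.05 with 150. SH-SY5Y gave 0.39, 0.29 and -0.06, HEK-293T 0.02, 0.01 and -0.24, and PC-12 0.47, 0.09 and -0.19. These medians are descriptions of overlapping fragments and were not tested.

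No allelic effect was called on chromosome 19. The effect is the activity of allele 2 minus that of allele 1 on the log2 scale, and 0 of 29, 33, 33 and 36 fragments passed in Neuro-2a, SH-SY5Y, HEK-293T and, last, PC-12, where 0.187%, 0.166%, 0% and 0% of the library's fragments passed by edgeR. At an unadjusted p under 0.05, edgeR gave 3, 7, 2 and 4 fragments, beside 10.9%, 13.5%, 4.13% and 7.24% of the library, and DESeq2's adjusted p gave 1, 3, 1 and 5, beside 12.7%, 4.49%, 0.99% and 10.7%. The median SE of the effect was 0.48 to 0.58 on the log2 scale. DESeq2's calls included MAU2's 19_19329257 with 100 bases in front, in HEK-293T and PC-12 (adjusted p = 0.0024 and 0.0011). Its edgeR effects were 2.58 ± 0.64 and 2.48 ± 0.60, beside 1.28 ± 2.96 in SH-SY5Y, and rest on the scarce allele 2. DESeq2 also called IRF3's 19_49665670 in PC-12 with 100 and 150 bases in front (adjusted p = 0.0082 and 0.0092). These edgeR effects were -0.72 ± 0.40 and -0.32 ± 0.26, and the 50-base placement gave 0.38 ± 0.29. Another DESeq2 call in PC-12 was ANKRD27's 19_32653820 with 50 bases in front (adjusted p = 0.0010). Its edgeR effect was -0.94 ± 0.27, and the 100-base placement gave 0.59 ± 0.53.

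AP3D1's 19_2129707 with 100 bases in front was the only fragment measured in all 4 lines whose allele share left the input range in the same direction in every RNA library. Allele 2 made up 43.7%, 45.5% and 45% of the input, and its share in RNA was 35%, 23.7% and 15.6% in Neuro-2a and 41%, 18.4% and 15.5% in SH-SY5Y. HEK-293T gave 38.2%, 20.1% and 14.4%, and PC-12 gave 43.5% and 16.9%. All 11 shares were lower than in the input, with replicate 1 nearest to it in every line. The log2 effects were -1.37 ± 0.45, -1.42 ± 0.55, -1.45 ± 0.56 and -1.03 ± 0.66, with unadjusted p of 0.0263, 0.0472, 0.0454 and 0.191 and adjusted p of 0.444, 0.355, 0.677 and 0.59 (edgeR). DESeq2 called this effect in Neuro-2a (adjusted p = 0.0307) and in no other line. SCAF1's 19_49644795 with 50 bases in front went the other way. Allele 2 made up 45.7%, 48.7% and 47.8% of the input and 56.8%, 63.5% and 78.4% of Neuro-2a RNA, and its share exceeded the input range in 10 of 11 RNA libraries, all but PC-12 replicate 1 at 47.9%. Its effects were 1.16 ± 0.43, 1.49 ± 0.41, 1.18 ± 0.49 and 1.18 ± 0.78, with adjusted p of 0.454, 0.355, 0.677 and 0.59 (edgeR). The same SNP with 150 bases in front gave -0.41 ± 0.69, -0.20 ± 0.31, 0.30 ± 0.43 and 0.01 ± 0.29. There the share lay above the input range in 5 RNA libraries and below it in 6. The SNP before IZUMO1 with 50 bases in front also exceeded the range in 10 of 11 libraries. Its effects were 1.94 ± 3.26, 1.37 ± 0.43, 0.60 ± 0.33 and 0.11 ± 0.30, none called.

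ZNF823's 3 fragments each gave a negative effect in all 4 lines, none called. With 50 bases in front, allele 2 was 65.1%, 66.2% and 65.3% of the input, and in RNA it was 63.8% to 67.1% in replicate 1 of the 4 lines. In replicates 2 and 3 its share was 34.8% to 41.2%. Replicate 1 thus stood apart from the other replicates in each of the 4 lines, and the part of the replicate number in the allelic results was not tested. THAP8's 19_36039660 with 100 bases in front showed the same split more widely. Its allele 2 share of 79.7%, 79.6% and 79.9% in the input was 68.7% to 100% in the 4 RNA libraries of replicate 1 and 0% to 29.8% in the others, and the effects of -1.79 to -5.53 had adjusted p of 0.355 or more (edgeR).

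Over the lines, 0 of the 73 alleles present in all 4 tables differed in activity by edgeR's quasi-likelihood F test after Benjamini-Hochberg adjustment over all such alleles of the library. At an unadjusted p under 0.05 there were 3, and DESeq2 called 2, beside 1.6% of the library's alleles, those of ZNF823 and IZUMO1 given above. For the allelic effect 0 of 26 fragments differed, with 0 at an unadjusted p under 0.05 and 0 by DESeq2. The library's shares were 0% of alleles for activity and 0% of fragments for the allelic effect, or 2.79% and 0.195% at an unadjusted p under 0.05.

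The 7 SNPs without a called allele in any line were 19_2129707 and 19_2155137 in AP3D1, 19_30539282 in ZNF536, 19_32653820 in ANKRD27, 19_36039660 in THAP8, 19_49644795 in SCAF1 and 19_56678350 in LOC105372473. Their lowest adjusted p per SNP was between 0.0547 and 0.177 (edgeR). The alleles nearest to a call among them were those of AP3D1's 19_2129707, whose log2 activities over placements and lines ran from -0.09 to 2.04. A p above the threshold does not show that these alleles were without activity. The allele of 19_32653820 with 150 bases in front listed only for PC-12, allele 1, had input counts of 612, 18 and 1 and RNA counts of 4 and 0, so the input libraries themselves did not agree on its abundance.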

How the data were processed

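Each line has a deposited table of read counts, whole numbers without normalization, whose columns are, per the file headers, both alleles in 3 plasmid input libraries and in the RNA libraries of that line. An allele missing from a table is written as 0 throughout. Per the labels' protocols, transfections were done in triplicate and the libraries are called biological replicates, but nothing ties them to separate cultures or days, so p-values may measure technical spread only. PC-12 replicate 2 was not used here. Per the submitters' processing notes, limma 3.40.6 is among the tools, with no step given. How reads were aligned and counted, and on which build, is not stated in any source used here. Reads after PCR are not independent molecules, so depth speaks to counting error only.

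Counts were fitted in R 4.3.3 with the quasi-likelihood test of edgeR 4.0.16, two-sided, after scaling by the trimmed mean of M values and a minimum mean count of 10, over all alleles or fragments of a line, with Benjamini-Hochberg adjustment and an adjusted p threshold of 0.05. Each SE is the estimate divided by the root of its F value. The fits of a line share a single spread between RNA and input libraries, so the SE is not the spread of the RNA replicates alone. Activity was tested as RNA against input, and the allelic effect and the placement difference as interactions with RNA. Differences between lines were tested by an F test over the 11 RNA libraries, without the input, which the lines share. The scripts were tested on simulated data. Values per library are given for most alleles past the threshold in at least 1 line. At the SNPs in MAU2 and ANKRD27 and near ZNF823 and IRF3 they cover part of the alleles and placements. Others are given by log2 activity, range or counts. The allele shares of AP3D1, SCAF1, the other THAP8 SNP and the IZUMO1 SNP with 50 bases in front were added after their values were seen. The members and lists were chosen with earlier results of these data known. The alternatives were DESeq2 1.42.0 for the test and for the size factors, limma 3.58.1 on log2 values with a pseudocount of 1 and any library with a count of 0 left out as missing, no count filter or a minimum of 50, a threshold of 0.1, the replicate number as a block, each library left out, and gene assignment within 10 kb.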

Additional observations from a re-analysis of the deposited data

Results flagged for a closer look

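Allele 2 of the ZNF823 SNP 19_11738921 with 50 bases in front lay above the input mean in every RNA library of Neuro-2a and below it in every library of SH-SY5Y and HEK-293T. Its log2 activity was 1.47 in Neuro-2a and -0.85 in HEK-293T, a difference of 2.32. The edgeR quasi-likelihood F test over the 4 lines gave an unadjusted p of 0.000113 and an adjusted p of 0.162, so the difference did not pass.

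Allele 2 of the SNP before IZUMO1, 19_48746982, with 50 bases in front lay above the input mean in every Neuro-2a library and below it in both PC-12 libraries. Its log2 activity was 1.73 and -0.50, a difference of 2.24, with an unadjusted p of 0.00239 and an adjusted p of 0.427 over the 4 lines by the edgeR F test.

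The allelic effect of 19_48746982 with 100 bases in front went up in every SH-SY5Y library and down in every library of Neuro-2a and PC-12. The log2 effects of 2.11 in SH-SY5Y and -0.86 in PC-12 differ by 2.98. Allele 2 was 75.9%, 74.8% and 73.8% of the input, and its RNA share was 84.4%, 79.4% and 100% in SH-SY5Y and 64.4% and 59.6% in PC-12. The PC-12 effect had an adjusted p of 0.59 by edgeR and 0.00028 by DESeq2. The SE in SH-SY5Y was 2.32, and the difference was not tested, since the fragment lacked an allele in the HEK-293T table.

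The allelic effect of the IRF3 SNP 19_49665670 with 100 bases in front went up in every SH-SY5Y library and down in both PC-12 libraries. The effects of 1.23 ± 0.64 and -0.72 ± 0.40 differ by 1.95. Allele 2 was 55.2%, 57.7% and 59.4% of the input, 63.9%, 87.7% and 72.3% of SH-SY5Y RNA, and 46.9% and 43.1% of PC-12 RNA. The difference was not tested, since the fragment lacked an allele in the Neuro-2a table.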

How the results depend on the processing

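No activity or placement call on chromosome 19 turned its direction under any alternative. The directions of allelic effects and of values not called were not followed over the alternatives. The counts of calls moved widely, and lines are given with Neuro-2a first, then SH-SY5Y, then HEK-293T and PC-12 last. DESeq2's test in place of edgeR's gave 29, 32, 25 and 38 activity calls in place of 7, 14, 3 and 9, 1, 3, 1 and 5 allelic calls in place of 0 in each line, 17, 25, 16 and 30 placement calls, of which 3, 10, 6 and 10 were higher with the longer front, in place of 5, 3, 2 and 6, all lower, and 2 activity differences between lines in place of 0. A threshold of 0.1 gave 12, 28, 9 and 20 activity calls and 9 placement calls in SH-SY5Y. limma with zeros left out gave 19 activity calls in PC-12, 12 in Neuro-2a and 7 in HEK-293T, and 2 and 1 allelic calls in Neuro-2a and SH-SY5Y. Leaving out each library in turn gave 0 to 40, 1 to 49, 0 to 28 and 0 to 76 activity calls, 0 to 12, 0 to 20, 0 to 9 and 0 to 34 allelic calls, 0 to 27, 0 to 31, 0 to 20 and 0 to 59 placement calls, and 0 to 0 for both tests between lines. The highest counts came without RNA replicate 1 and the lowest without an input library, any of which left 0 calls, or 1 in SH-SY5Y. Without RNA replicate 2, Neuro-2a had 0 placement calls. When RNA replicate 1 or 3 is left out, PC-12 has a single RNA library, which is assumed to vary like the input. Counts of calls from those fits are not given. With the replicate number of RNA and input libraries as a replicate block, 0 activity calls passed in each line. The pairing check gave r of -0.06 to 0.11 between deviations of same-numbered RNA and input libraries, over 0.1 in 1 of 11 pairs, so they share only a number. Same-numbered RNA libraries of different lines deviated together at r of 0.04 to 0.45 (15 pairs), against -0.40 to 0.23 for other numbers (30 pairs), and the replicate block between lines left 0 calls in both tests. The DESeq2 size factors, the count filters and the remaining settings kept each count within 1.5 times. The causes of these changes were not tested. Assigning SNPs to genes within 10 kb changes names and no value.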
